A study of Mus musculus with 6 samples.

Results

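The 39 genes described here encode the enzymes and regulators of cholesterol and fatty acid synthesis. They were taken by symbol from a deposited count table of 16736 rows, where each stood on a single row, and all 39 were abundant enough to be tested. They form a sterol arm of 20 genes, known as targets or regulators of the transcription factor SREBP2, and a fatty acid arm of 19 genes grouped around SREBP1. The table comes from RNA sequencing of whole pituitaries of male mice, 3 libraries with the treatment label RD and 3 with the label HFD. Both groups had been fasted for 16 h and then fed for 4 h before collection. RD and HFD are not explained in the labels, which also give no strain, age, diet composition or duration. Nor do they state whether each library came from its own animal, and the spread that the p-values rest on may thus be technical. The series title names obesity and fatty liver disease as the setting.

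Cells make cholesterol from acetyl-CoA through the mevalonate pathway, squalene and lanosterol. SREBP transcription factors are held in the membrane of the endoplasmic reticulum by the escort protein SCAP and by the INSIG proteins when sterols are plentiful, and are released and cleaved when sterols fall. SREBP2 acts mainly on sterol genes. SREBP1 acts mainly on genes of fatty acid synthesis, desaturation and elongation, in liver and fat under the control of insulin and feeding. In an endocrine gland these lipids supply the membranes of secretory granules and of the endoplasmic reticulum.

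Most of both arms did not pass the test. Of the 39 genes, 2 rose and 4 fell in HFD by edgeR's quasi-likelihood test (adjusted p under 0.05 over all 13873 tested genes, the meaning of "called" throughout). Over all tested genes 10.5% were called, 5.87% higher and 4.61% lower, and over the 39 genes 15.4%. The sterol arm had 1 higher gene, the mevalonate pathway kinase gene PMVK, and 1 lower gene, the SREBP retention gene INSIG2. The fatty acid arm had 1 higher gene, the lipid droplet acylhydrolase gene PNPLA3, and 3 lower genes, the elongase genes ELOVL5 and ELOVL6 and the desaturase gene FADS1. Called shares were 10% of the sterol arm and 21.1% of the fatty acid arm. With so few called members, a difference between the arms was not tested.

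The median log2(HFD/RD) was -0.06 over the sterol arm, 0.00 over the fatty acid arm and 0.00 over all tested genes. In the sterol arm 9 genes had a positive and 11 a negative log2 change, and in the fatty acid arm 10 and 9. Values ran from -0.34 to 0.53 in the sterol arm and from -0.56 to 0.86 in the fatty acid arm. The fatty acid arm thus had the same median as the transcriptome and a wider range of values than the sterol arm. Groups did not overlap for 8 members with higher values in HFD and for 8 with lower values, against 32.5% of all tested genes (16.9% higher and 15.6% lower). The values of each arm lay on both sides of 0, as the plot of log2 changes by role shows.

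**Figure D1:**
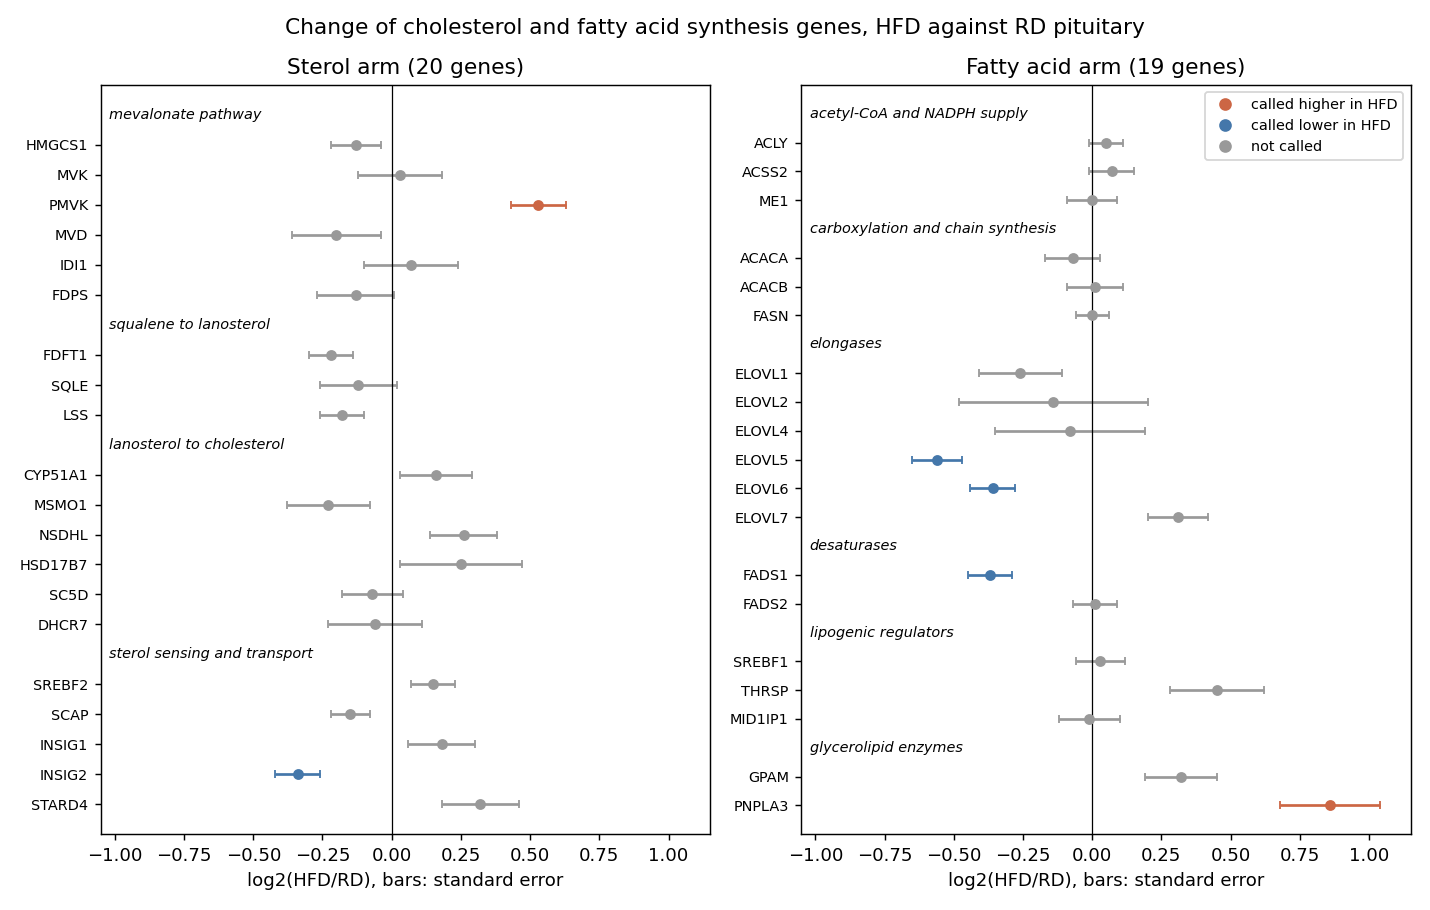
Log2(HFD/RD) of the 20 sterol arm genes (left) and 19 fatty acid arm genes (right), ordered by role. Points are edgeR estimates with bars of 1 standard error, orange for genes called higher, blue for genes called lower and grey for genes not called. Most points lie near 0, and the 6 called genes run from ELOVL5 at -0.56 to PNPLA3 at 0.86.

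Totals of the listed rows ranged from 15702214 to 18111345 counts in RD and from 14185372 to 14384933 in HFD. On the first principal component of all tested genes RD replicate 3 lay at -36.2, farther from the HFD libraries (19.1 to 24.4) than RD replicates 1 and 2 (-9.68 and -18.5). Without that library 3 members were called higher and 4 lower. All 7 hormone genes that mark secretory pituitary cells were detected, with summed values of 85100 to 95500 CPM in RD and 58300 to 65200 in HFD (CPM are counts scaled to a common library total by TMM, the trimmed-mean factors of edgeR). That sum, most of it from GH1 (called lower), did not overlap between the groups, but its genes did not move one way. GH1, PRL, LHB and FSHB were called lower, TSHB (2.06-fold) and CGA (1.29-fold) higher, and POMC was not called. Nor was there overlap in the sum of 5 folliculostellate and progenitor markers (268 to 313 and 319 to 362 CPM), of which ALDH1A2 was called higher. The other 4 were not called and overlapped between the groups. Among them were RBPMS, the source of most of the sum (log2 change 0.21 ± 0.09), SOX2 (-0.03 ± 0.11) and SOX9 (-0.04 ± 0.15). Of 6 oligodendrocyte markers 2 of 5 tested were called higher, among them MAG, with sums of 69.7 to 81.2 CPM in RD and 78.0 to 210 in HFD, the highest in HFD replicate 3. Sums of pituicyte, astrocyte, endothelial, mural, myeloid and erythroid markers overlapped, and of their genes the mural marker CSPG4 was called (1.8-fold higher, 6.49 ± 1.32 CPM in RD and 11.6 ± 1.25 CPM in HFD, SD, n = 3 each). Fewer cells of a type and less RNA per cell cannot be told apart in such bulk samples, and the part of these shifts in the changes described here was not tested.

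In the mevalonate pathway PMVK rose and the other 5 genes were not called. PMVK encodes phosphomevalonate kinase (chromosome 3 of mm10, 89454541 to 89469013, plus strand). Its level was 24.8, 23.2 and 27.3 CPM in RD replicates 1, 2 and 3, and 36.1, 37.6 and 35 CPM in HFD replicates 1, 2 and 3. All HFD libraries lay above all RD libraries, with a gap wider than the spread within either group. The means were 25.1 ± 2.04 and 36.3 ± 1.31 CPM (SD, n = 3 each), a 1.44-fold rise or 0.53 ± 0.10 (SE) on the log2 scale (adjusted p = 0.0095). It was not called without HFD replicate 2 (log2 change 0.50, adjusted p = 0.0548).

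The genes of the enzymes on either side of that step were not called. MVK, the kinase just before PMVK, was at 9.85, 10.2 and 13.3 CPM in RD and 11.7, 11.1 and 11.3 CPM in HFD. MVD, the decarboxylase just after it, was at 7.34, 7.23 and 7.34 CPM in RD and 6.17, 6.38 and 6.49 CPM in HFD. MVK overlapped between the groups and MVD was lower in every HFD library, and neither was called (log2 changes of 0.03 ± 0.15 and -0.20 ± 0.16). HMGCS1, which makes the precursor of mevalonate and is a textbook SREBP2 target, was at 56.4, 63.6 and 67.1 CPM in RD and 56.5, 56.6 and 58.0 CPM in HFD (log2 change -0.13 ± 0.09, adjusted p = 0.38). IDI1, the isomerase, and FDPS, which makes farnesyl diphosphate, had log2 changes of 0.07 ± 0.17 and -0.13 ± 0.14. FDPS shares 1124 of its 4208 exonic bases with Gm43738 on the same strand.

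The 3 genes from squalene to lanosterol had negative log2 changes and none was called. FDFT1, squalene synthase, was the most abundant at 102, 115 and 98.0 CPM in RD and 84.7, 95.2 and 90.0 CPM in HFD. LSS, lanosterol synthase, was at 40.1, 45.1 and 42.2 CPM in RD and 37.5, 36.2 and 39.1 CPM in HFD. Every HFD library was below every RD library for both genes, but the changes of -0.22 ± 0.08 and -0.18 ± 0.08 did not pass (adjusted p = 0.13 and 0.22). SQLE, the squalene epoxidase that is a rate-limiting step, overlapped between the groups (-0.12 ± 0.14). FDFT1 shares 774 of its 4227 exonic bases with Ctsb on the opposite strand, and without knowledge of strand in the counting their reads cannot be told apart there.

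From lanosterol to cholesterol 3 of the 6 genes had positive and 3 negative log2 changes, and none was called. NSDHL, a sterol dehydrogenase, was at 13.6, 12.4 and 12.9 CPM in RD and 15.7, 15.8 and 15.2 CPM in HFD. It was higher in every HFD library (0.26 ± 0.12, adjusted p = 0.19). CYP51A1, the lanosterol demethylase, was at 30.0, 30.2 and 41.5 CPM in RD and 36.1, 39.1 and 38.5 CPM in HFD. RD replicate 3 was the highest of the 6 libraries, and without it CYP51A1 was called higher (0.33, adjusted p = 0.0393) against 0.16 ± 0.13 with it. The methyl sterol oxidase gene MSMO1 (-0.23 ± 0.15), the ketoreductase gene HSD17B7 (0.25 ± 0.22), the sterol desaturase gene SC5D (-0.07 ± 0.11) and DHCR7 (-0.06 ± 0.17), which makes cholesterol in the last step of its branch, overlapped between the groups.

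Among the 5 genes of sterol sensing and transport INSIG2 fell and the other 4 were not called. INSIG2 encodes a membrane protein that retains SCAP in the endoplasmic reticulum (chromosome 1 of mm10, 121304353 to 121332589, minus strand). It was at 68.0, 68.6 and 70.1 CPM in RD and 58.6, 55.0 and 49.4 CPM in HFD. The RD libraries lay close together, and all HFD libraries were below them. The change from 68.9 ± 1.10 to 54.4 ± 4.64 CPM (SD, n = 3 each) was -0.34 ± 0.08 (SE) on the log2 scale (adjusted p = 0.032). The call was lost on leaving out HFD replicate 2, HFD replicate 3 or RD replicate 2 (adjusted p = 0.104, 0.133 and 0.0707) and with library size as the only scaling (0.0597).

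INSIG1, the paralog that is itself a target of SREBP, was not called. It was at 68.3, 66.9 and 52.6 CPM in RD and 66.3, 64.4 and 81.7 CPM in HFD, with the lowest value in RD replicate 3 and the highest in HFD replicate 3 (0.18 ± 0.12, adjusted p = 0.40). The ratio of INSIG1 to INSIG2 counts was 1, 0.975 and 0.750 in RD and 1.13, 1.17 and 1.65 in HFD. Every HFD ratio was above every RD ratio, in an exact two-sided permutation test of the log2 ratio with p = 0.1 (0.15 adjusted over 6 pairs). That p is the smallest that 3 against 3 libraries can give. The pair was chosen with its values known, and INSIG2 alone already separated the groups, so the ratio is not separate support. SREBF2, the gene of SREBP2, was at 116, 108 and 122 CPM in RD and 138, 121 and 124 CPM in HFD (0.15 ± 0.08, adjusted p = 0.27). SCAP was lower in every HFD library (160, 171 and 178 against 157, 155 and 147 CPM) and STARD4, a cytosolic sterol carrier, higher in each (25.2, 27.0 and 19.9 against 28.4, 34.3 and 27.2 CPM). Neither was called (-0.15 ± 0.07 and 0.32 ± 0.14, adjusted p = 0.18 for both).

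None of the 6 genes of substrate supply and fatty acid chain synthesis was called, and their log2 changes lay between -0.07 and 0.07. FASN, fatty acid synthase, was at 300, 293 and 309 CPM in RD and 295, 310 and 295 CPM in HFD (0.00 ± 0.06). ACLY, which makes cytosolic acetyl-CoA from citrate, was at 191, 189 and 188 CPM in RD and 191, 193 and 203 CPM in HFD (0.05 ± 0.06). Their standard errors were the smallest of the members. The acetyl-CoA carboxylase genes ACACA and ACACB had log2 changes of -0.07 ± 0.10 and 0.01 ± 0.10, the acetate-activating gene ACSS2 of 0.07 ± 0.08, and ME1, a malic enzyme that supplies NADPH, of 0.00 ± 0.09. The adjusted p of these 6 genes was at least 0.65. SREBF1 itself was at 114, 112 and 105 CPM in RD and 99.6, 118 and 121 CPM in HFD (0.03 ± 0.09), and its ratio to SREBF2 overlapped between the groups.

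The called falls of the fatty acid arm were in elongation and desaturation. ELOVL5, which elongates polyunsaturated fatty acids (chromosome 9 of mm10, 77917364 to 77984519, plus strand), was at 104, 118 and 132 CPM in RD and 80.1, 79.0 and 81.0 CPM in HFD. Every HFD library was below every RD library, and the HFD libraries lay much closer together. The means were 118 ± 14.3 and 80.0 ± 1.03 CPM (SD, n = 3 each), a log2 change of -0.56 ± 0.09 (adjusted p = 0.0061). Of the 6 called members it was the only one called in each of the 15 other settings tried, with adjusted p of at most 0.0393.

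ELOVL6, which elongates palmitate to stearate (chromosome 3 of mm10, 129532355 to 129638495, plus strand), was at 79.2, 77.7 and 81.9 CPM in RD and 65.8, 64.1 and 56.5 CPM in HFD. The groups did not overlap, and the change was -0.36 ± 0.08 (adjusted p = 0.024). FADS1, the desaturase that completes arachidonic and eicosapentaenoic acid (chromosome 19 of mm10, 10182888 to 10196877, plus strand), was at 173, 197 and 206 CPM in RD and 143, 147 and 156 CPM in HFD. It was lower in every HFD library, from 192 ± 17.2 to 148 ± 6.72 CPM, or -0.37 ± 0.08 (adjusted p = 0.018). Leaving out a library often ended these calls. That of ELOVL6 ended on leaving out HFD replicate 2, HFD replicate 3 or RD replicate 2 (adjusted p = 0.077, 0.108 and 0.051), and that of FADS1 on leaving out RD replicate 2 or any of the HFD libraries (adjusted p from 0.0552 to 0.0823).

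FADS2 lies next to FADS1 on chromosome 19, on the minus strand (10062765 to 10101746), and encodes the desaturase that acts before ELOVL5 and FADS1 in the same pathway. It was at 97.6, 103 and 90.4 CPM in RD and 102, 92.3 and 99.6 CPM in HFD, with groups that overlapped (0.01 ± 0.08, adjusted p = 0.94). The ratio of FADS1 to FADS2 counts was 1.77, 1.91 and 2.28 in RD and 1.40, 1.59 and 1.57 in HFD. Each HFD ratio was below each RD ratio, in an exact two-sided permutation test with p = 0.1, the smallest possible here. Of 6 pairs of related members compared in this way, chosen with their values known, 4 did not overlap (exact permutation p = 0.1 for each, 0.15 adjusted over the 6). Each of these 4 pairs holds a called member whose own groups did not overlap (INSIG2, FADS1, ELOVL5 or PNPLA3). The share of non-overlapping ratios over other pairs of genes was not computed, so this count has no background. The ratios of ACACA to ACACB (0.744, 0.534 and 0.805 in RD and 0.543, 0.71 and 0.7 in HFD) and of SREBF1 to SREBF2 overlapped (exact permutation p = 0.6 and 0.5). The plot of count ratios shows all 6 pairs.

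**Figure D2:**
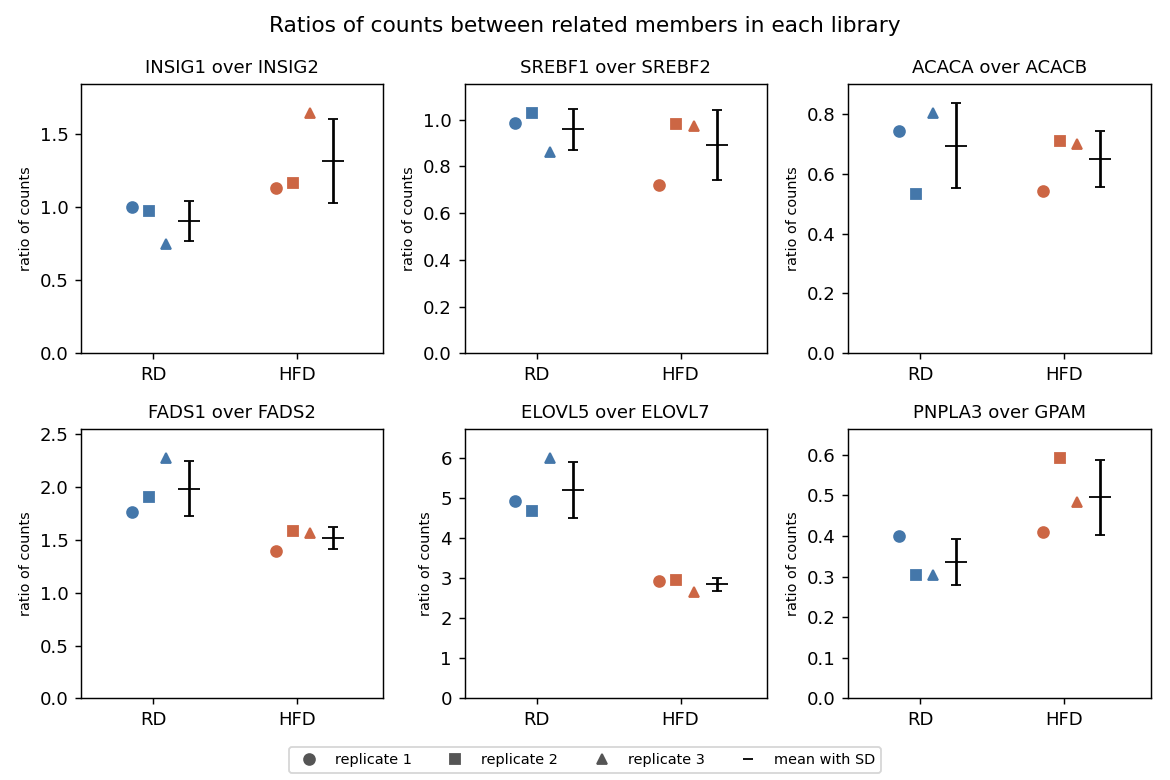
Ratio of raw counts between related members in each library (vertical axes, from 0), with RD in blue, HFD in orange, a marker shape for each replicate number and black bars for the mean with SD (n = 3). The pairs were chosen with their values known. RD and HFD ratios do not overlap in 4 of the 6 pairs, each of which holds a called member. For ELOVL5 over ELOVL7 they are 4.69 to 6.01 against 2.65 to 2.95. They overlap for SREBF1 over SREBF2 and ACACA over ACACB.

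The other elongase genes were not called. ELOVL7, an elongase of saturated very long chains, was at 21.0, 25.3 and 22.0 CPM in RD and 27.2, 26.8 and 30.6 CPM in HFD. It was the only elongase gene with a positive log2 change and was higher in every HFD library (0.31 ± 0.11, adjusted p = 0.11). ELOVL1 (-0.26 ± 0.15), ELOVL2 (-0.14 ± 0.34) and ELOVL4 (-0.08 ± 0.27) overlapped between the groups, and the last 2 were the least abundant of the 6 members. ELOVL3, which is not among the members, was at 0 CPM in 5 of the 6 libraries and was not tested. On a scale per kilobase of annotated exon, ELOVL5 led in RD at 33.5 ± 4.05 CPM per kb, followed among the 6 members by ELOVL6 at 12.4 ± 0.336, ELOVL1 at 8.55 ± 1.81, ELOVL7 at 5.68 ± 0.55, ELOVL4 at 2.24 ± 0.472 and ELOVL2 at 0.955 ± 0.267 (SD, n = 3). In HFD the order was the same, but ELOVL1 (7.15 ± 0.546) and ELOVL7 (7.03 ± 0.527) no longer differed beyond their spread.

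PNPLA3 had the largest change of the 39 genes. It encodes an acylhydrolase of lipid droplets that SREBP1 is known to induce in liver (chromosome 15 of mm10, 84167837 to 84187236, plus strand). Its level was 30.5, 25.4 and 17.6 CPM in RD and 40.6, 50 and 42.6 CPM in HFD. RD replicate 3 was the lowest, and all HFD libraries were above all RD libraries. The mean went from 24.5 ± 6.53 to 44.4 ± 4.95 CPM (SD, n = 3 each), a 1.81-fold rise or 0.86 ± 0.18 on the log2 scale (adjusted p = 0.016). Leaving out HFD replicate 2 or HFD replicate 3 ended the call (adjusted p = 0.0767 and 0.0632). PNPLA3 shares 105 of its 1548 exonic bases with Gm49513 on the same strand.

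Some other lipogenic genes were higher in every HFD library but missed the threshold. GPAM, the mitochondrial acyltransferase that starts glycerolipid synthesis, was at 76.1, 83.7 and 57.8 CPM in RD and 99.0, 84.4 and 88.1 CPM in HFD (0.32 ± 0.13, adjusted p = 0.14). THRSP (Spot 14), a thyroid hormone and feeding responsive regulator of lipogenesis, was at 15.4, 13.0 and 9.36 CPM in RD and 16.8, 17.5 and 17.2 CPM in HFD (0.45 ± 0.17, adjusted p = 0.13). RD replicate 3 was the lowest library for GPAM and THRSP, as for PNPLA3. THRSP was called without RD replicate 1 (0.62, adjusted p = 0.0461) and not in the other 14 settings. Without RD replicate 3 its log2 change was 0.27 (adjusted p = 0.235) and that of GPAM 0.17 (adjusted p = 0.246), while PNPLA3 was still called (0.66, adjusted p = 0.00591). MID1IP1, the paralog of THRSP that activates acetyl-CoA carboxylase, had a log2 change of -0.01 ± 0.11. Of 6 adipocyte markers 2 were tested and neither was called, with sums of 15.8 to 19.3 CPM in RD and 18.4 to 20 CPM in HFD, most of it from the lipase gene LIPE, which other cells also express. FABP4, the other tested marker, was at 2.02, 1.5 and 1.21 CPM in RD and 3.19, 2.11 and 3.45 CPM in HFD, higher in every HFD library as PNPLA3, GPAM and THRSP were (0.88 ± 0.32, adjusted p = 0.11), and its part in those changes was not tested. ADIPOQ was at 0.136 CPM in HFD replicate 2 and 0 in the other 5 libraries, and PLIN1 was at most 0.135 CPM.

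**Figure D3:**
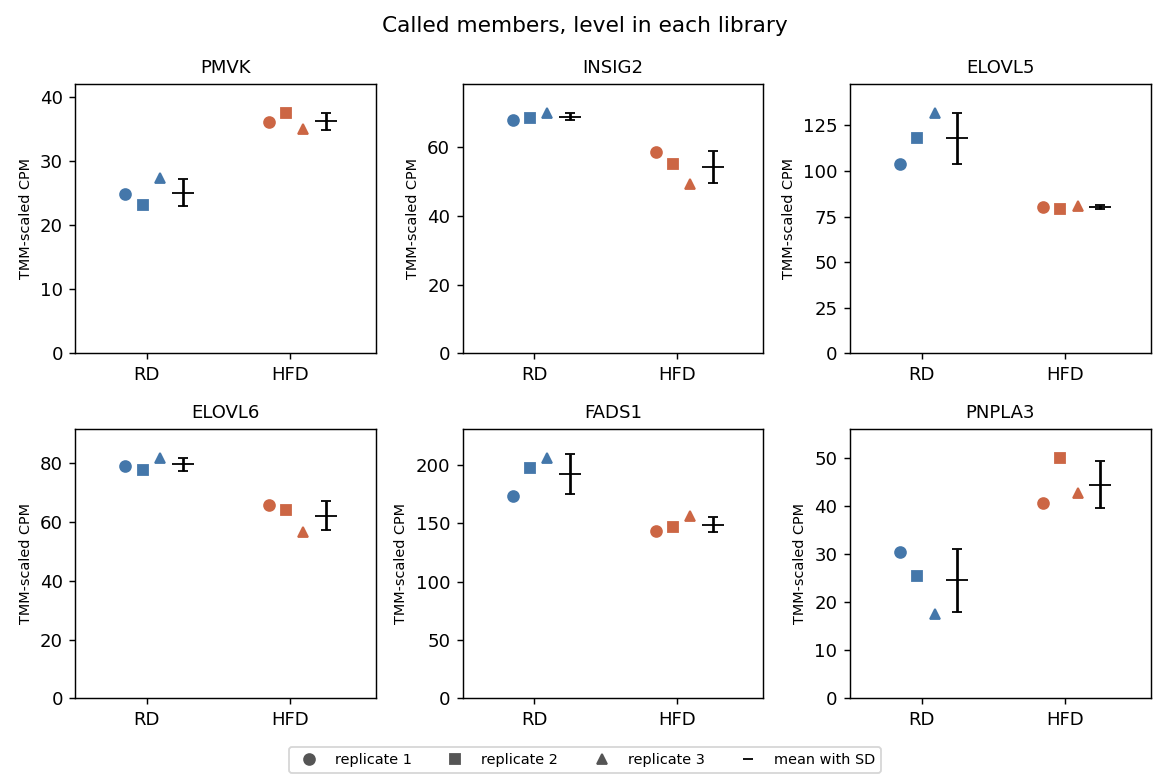
TMM-scaled CPM of the 6 called members in each library (vertical axes, from 0), with RD in blue, HFD in orange, a marker shape for each replicate number and black bars for the mean with SD (n = 3). PMVK and PNPLA3 are higher and INSIG2, ELOVL5, ELOVL6 and FADS1 lower in all 3 HFD libraries than in all 3 RD libraries.

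The promoters of the called members are shown because members called in opposite directions can be set beside each other and beside the SREBP genes. RefSeq (GRCm38.p6) promoter sequences matched 34 of the 39 genes, and FADS1, FDFT1, FDPS, SQLE and STARD4 had none. The 250 bases before the start site were searched on both strands for the sterol regulatory element TCACNCCAC, the CCAAT box bound by NF-Y and the E-box CACGTG. Capitals below mark these matches, which do not overlap each other, and the opposite strand of CCAAT reads ATTGG. Sequences run 5′ to 3′ on the strand of the gene, from its start site that lies farthest upstream.
PMVK, chr3:89454291-89454540, plus strand: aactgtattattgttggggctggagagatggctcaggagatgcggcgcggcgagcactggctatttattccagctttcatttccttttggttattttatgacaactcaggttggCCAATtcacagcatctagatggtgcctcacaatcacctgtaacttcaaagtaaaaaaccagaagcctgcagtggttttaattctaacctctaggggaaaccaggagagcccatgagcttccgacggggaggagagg
INSIG2, chr1:121332590-121332839, minus strand: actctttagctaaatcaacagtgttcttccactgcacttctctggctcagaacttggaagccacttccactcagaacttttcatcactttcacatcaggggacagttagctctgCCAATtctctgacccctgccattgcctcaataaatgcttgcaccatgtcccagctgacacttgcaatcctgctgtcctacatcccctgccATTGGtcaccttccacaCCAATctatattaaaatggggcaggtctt
ELOVL5, chr9:77917115-77917364, plus strand: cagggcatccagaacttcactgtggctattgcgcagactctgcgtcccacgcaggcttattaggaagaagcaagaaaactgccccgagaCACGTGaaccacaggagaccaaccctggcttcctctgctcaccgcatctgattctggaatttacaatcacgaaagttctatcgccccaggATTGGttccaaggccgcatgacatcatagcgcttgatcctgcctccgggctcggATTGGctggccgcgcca
ELOVL6, chr3:129532136-129532385, plus strand: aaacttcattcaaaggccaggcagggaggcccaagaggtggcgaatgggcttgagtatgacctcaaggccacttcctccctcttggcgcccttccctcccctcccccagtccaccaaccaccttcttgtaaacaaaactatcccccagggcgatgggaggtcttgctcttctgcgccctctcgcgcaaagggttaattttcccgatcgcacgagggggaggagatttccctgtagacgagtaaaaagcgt
PNPLA3, chr15:84167566-84167815, plus strand: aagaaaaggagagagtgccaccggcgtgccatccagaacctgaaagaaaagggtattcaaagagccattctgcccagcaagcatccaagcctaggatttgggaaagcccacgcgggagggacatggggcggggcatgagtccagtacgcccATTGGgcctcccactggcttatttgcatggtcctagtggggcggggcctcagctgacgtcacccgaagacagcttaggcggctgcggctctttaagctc
SREBF2, chr15:82147019-82147268, plus strand: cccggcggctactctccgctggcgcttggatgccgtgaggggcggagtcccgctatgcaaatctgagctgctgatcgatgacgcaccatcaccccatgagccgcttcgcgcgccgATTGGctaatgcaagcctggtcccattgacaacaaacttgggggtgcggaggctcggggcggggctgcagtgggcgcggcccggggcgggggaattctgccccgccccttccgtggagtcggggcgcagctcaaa
SREBF1, chr11:60222582-60222831, minus strand: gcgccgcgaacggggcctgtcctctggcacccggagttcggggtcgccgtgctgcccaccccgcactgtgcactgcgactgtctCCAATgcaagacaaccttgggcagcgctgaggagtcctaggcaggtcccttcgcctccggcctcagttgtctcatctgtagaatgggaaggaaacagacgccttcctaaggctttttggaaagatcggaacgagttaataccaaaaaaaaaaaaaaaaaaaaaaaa
HMGCS1, chr13:119690101-119690350, plus strand: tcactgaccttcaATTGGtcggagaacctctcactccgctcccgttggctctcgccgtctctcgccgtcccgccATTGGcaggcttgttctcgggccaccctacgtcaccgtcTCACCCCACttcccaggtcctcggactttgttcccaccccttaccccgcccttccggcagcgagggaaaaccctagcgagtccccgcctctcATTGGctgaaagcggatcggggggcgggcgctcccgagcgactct

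HMGCS1, chosen after its match was seen, is shown as the only member with a sterol regulatory element match. Such a match was found in 1 of 16 sterol arm genes, in 0 of 18 fatty acid arm genes and in 1.30% of 10631 tested genes with a sequence, counting every annotated start. A CCAAT box was found in 15 of 16 sterol arm genes (93.8%), 10 of 18 fatty acid arm genes (55.6%) and 39.4% of tested genes. An E-box was found in 5 of 16, 1 of 18 and 9.61%. ELOVL5 held 2 CCAAT boxes and the only E-box of the fatty acid arm, while ELOVL6, which fell with it, held no match. PMVK and PNPLA3, both called higher, held 1 CCAAT box each, and INSIG2, called lower, held 3, at the starts shown. The other annotated starts of PMVK and INSIG2 held no match. FADS1 had no sequence, and with so few called members a link between matches and direction was not tested. The matches are letters in a window and say nothing on whether a factor binds. Only exact matches to the letters given were counted, and variants of these elements were not searched. The SREBF2 sequence shown holds tcaccccat, which differs from TCACNCCAC only in its last base and was not counted. A gene without a match can thus not be said to lack a sterol regulatory element or an E-box.

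Levels within the RD group were not even across libraries. For 11 of the 20 sterol arm genes RD replicate 3 had the highest value of the RD libraries, where over all tested genes it was the highest in 39%. Its median deviation over the sterol arm was 0.09, against -0.01 and -0.03 in RD replicates 1 and 2 and between -0.04 and 0.03 in the HFD libraries (log2(CPM + 1) minus the gene's mean over the 6 libraries). SQLE (38.7, 43.6 and 56.3 CPM in RD replicates 1, 2 and 3), MSMO1 (25, 25 and 35.8), SC5D (41.3, 36.7 and 50) and CYP51A1 were among the genes highest there, and DHCR7 (31.0, 35.5 and 21.7) and INSIG1 were lowest there. Without RD replicate 3 the median log2 change of the sterol arm was 0.05 in place of -0.06. The median of the fatty acid arm stayed between -0.02 and 0.06 with any library left out.

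**Figure D4:**
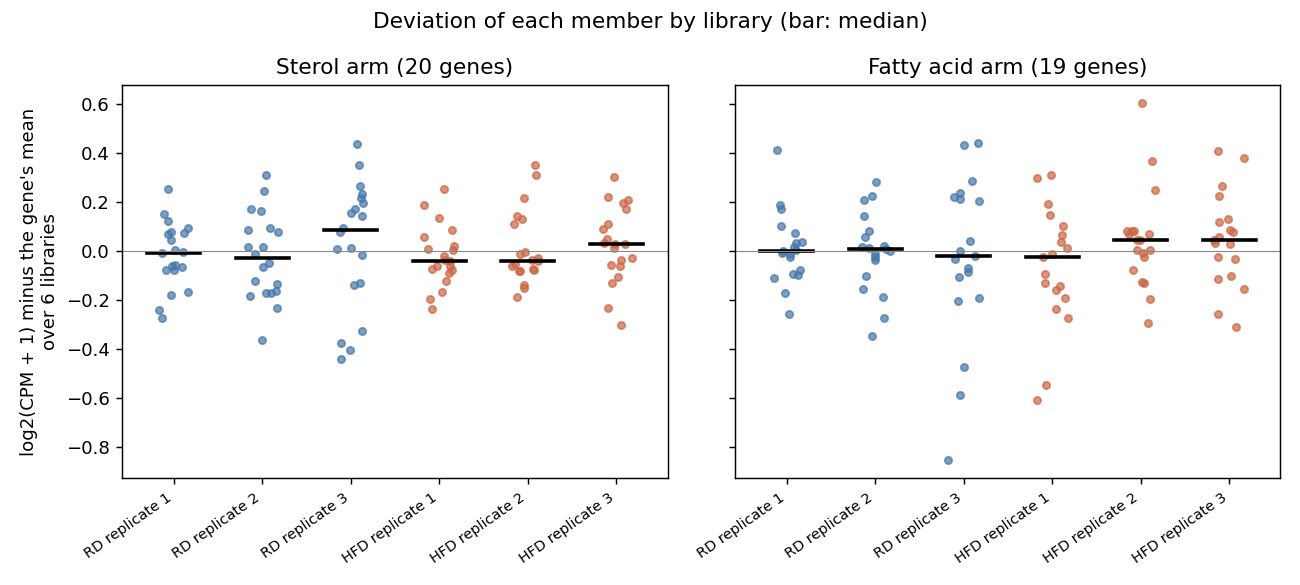
Deviation of each member from its own mean over the 6 libraries on the log2(CPM + 1) scale (vertical axis), for the sterol arm (left, 20 genes) and the fatty acid arm (right, 19 genes), with RD in blue, HFD in orange and black bars for the median of each library. Medians lie between -0.04 and 0.09 in every library, while single genes lie well above and below them.

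Other genes of the same pathways were read from lists drawn up with earlier results of these data known. Of 31 tested further genes of sterol synthesis, SREBP processing and sterol transport, 4 were called (12.9%, against 10.5% of all tested genes). These 4 were lower, as were 4.61% of all tested genes, and the median log2 change of the list was -0.03. SOAT1, which esterifies cholesterol for storage, was at 141, 144 and 152 CPM in RD and 99.9, 95.0 and 106 CPM in HFD (-0.54 ± 0.07, adjusted p = 0.0023), and was called in each of the 15 other settings. All of its HFD libraries lay well below its RD libraries. ERLIN1 encodes a part of the machinery of sterol-regulated protein degradation in the endoplasmic reticulum. ERLIN1 was at 35.6, 41.5 and 46.1 CPM in RD and 29.1, 27.6 and 21.8 CPM in HFD (-0.65 ± 0.13). The groups did not overlap, but the call was lost when HFD replicate 2 or HFD replicate 3 was left out (adjusted p of at most 0.0691). VLDLR, a lipoprotein receptor, was at 97.1, 127 and 228 CPM in RD and 69.0, 61.9 and 58.9 CPM in HFD (-1.25 ± 0.25). Its RD spread was wide, and without RD replicate 3 its log2 change was -0.83. Its call ended when HFD replicate 2 or HFD replicate 3 was left out (adjusted p of at most 0.0816). The 8 tested genes of other sterol synthesis steps, among them EBP and LBR, held no called gene (2 at an unadjusted p under 0.05), with log2 changes from -0.21 to 0.08.

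Of 31 tested further genes of fatty acid desaturation, elongation, activation, lipid assembly and mitochondrial fatty acid synthesis, 1 was called higher and 1 lower. The called share was 6.45%, against 10.5% of all tested genes, and the median log2 change was -0.08. HSD17B12, the ketoacyl reductase of the elongation cycle in which the ELOVL proteins act, was at 55.8, 65.6 and 62.8 CPM in RD and 47.3, 50.3 and 44.4 CPM in HFD (-0.38 ± 0.09, adjusted p = 0.030). HACD2, a dehydratase of that cycle, was lower in every HFD library and missed the threshold (-0.43, adjusted p = 0.057), and TECR, its reductase, had a log2 change of 0.09. Of the 8 tested further genes of desaturation and the elongation cycle, HSD17B12 was thus the only one called. The stearoyl-CoA desaturase genes were not read. SCD and SCD2 had no row, and the SCD5 row, whose symbol matched no mouse gene, was left out. The symbol SCD1 was not looked up. ACSL6, an acyl-CoA synthetase gene, was at 45.3, 52.8 and 50.3 CPM in RD and 62.8, 61.7 and 70.9 CPM in HFD (0.40 ± 0.09, adjusted p = 0.025). HSD17B12 was not called without RD replicate 2 or any HFD library, nor with library size as the only scaling, and ACSL6 not without RD replicate 1 or any HFD library (adjusted p up to 0.133).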

How the data were processed

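Poly(A)-selected RNA of the pituitary was sequenced in 6 libraries, per the labels. The deposited table holds whole-number counts per gene symbol with no normalization, and the submitters' processing notes name the mm10 build. The aligner, counter, annotation and strand setting were not given in the sources used here. Symbols are in upper-case human style. The 39 members, the split into arms and the lists of other genes were chosen with earlier results of these data known. All members matched a single gene of GENCODE M21 (CYP51A1 is mouse Cyp51), and 14 share exonic bases with another gene. The test was that of edgeR 4.0.16 under R 4.3.3 (TMM, minimum count 10, minimum total 15, an intercept and diet, quasi-likelihood, two-sided), with Benjamini-Hochberg adjustment over all tested genes. Standard errors were derived from the log2 change and its F statistic (size over root F). Libraries of a group differed by more than sampling noise (chi-square per degree of freedom of 4.47 to 21.0). The scripts were tested on simulated data. Alternatives were other scalings and filters, DESeq2 1.42.0, limma-voom (limma 3.58.1), halved counts, a replicate block and each library left out, and those planned for normalized values were not run. Named genes were all members and up to 4 called genes of each list of other genes with the smallest p, of which 1 is not reported here; HACD2, TECR, EBP, LBR and the markers were named beside these after their values were seen. Promoters are from RefSeq on GRCm38.p6.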

Additional observations from a re-analysis of the deposited data

How the results depend on the processing

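Besides the reported fit, 15 settings were tried. ELOVL5 alone of the 6 called members was called in each, 31 of the 33 members not called were called in none, and no call changed direction. The number of called genes was 808 with the replicate block and ranged from 431 to 1523 with a library left out (1453 reported). Members called higher ranged from 0 to 3 and members called lower from 1 to 4 with a library left out. In the sterol arm these counts ranged from 0 to 2 higher and 0 to 1 lower, and in the fatty acid arm from 0 to 2 higher and 1 to 3 lower. Counts of 0 are by edgeR, with 1 to 3 genes of the arm in that direction at an unadjusted p under 0.05, and on all libraries DESeq2 and limma-voom each called 1 gene higher and 1 lower in the sterol arm and 1 higher and 3 lower in the fatty acid arm. With library size as the only scaling 0 sterol arm genes were called lower, 72.5% of all calls were higher (56.0% with TMM), and the medians were 0.00 for the sterol arm, 0.07 for the fatty acid arm and 0.07 for all tested genes. With the replicate block 2 members were called lower and 0 in the sterol arm. The calls of INSIG2 (adjusted p = 0.0754), ELOVL6 (0.0666), HSD17B12 (0.0607) and ACSL6 (0.0537) ended under it. Same-numbered libraries did not deviate together (correlations of -0.13, 0.00 and -0.10), so the numbers were not taken as pairs. The smallest called change among the members was -0.34, and 3 libraries a group limit what could be detected.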
